A study of Mus musculus with 12 samples.

Results

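The genes described here are 32 B cell and lymphoid follicle genes, out of 54109 genes in the count table. They were taken from a list of symbols that names B cell surface and signalling molecules, B cell transcription factors, germinal centre genes, homing receptors and the chemokines and cytokine of lymphoid stroma, and each symbol matched 1 Ensembl gene of the GENCODE M21 annotation. RNA was sequenced from mice with acute colitis induced by dextran sulfate sodium (DSS), which injures the colonic epithelium, and all 4 groups had received it. The genotypes were wild type (WT) and a knockout (KO) with neither allele of Gpr15l, whose product is secreted and binds the T cell homing receptor Gpr15. Each genotype was sampled as full colon and as LPMC (lamina propria mononuclear cells), with 3 libraries for each of colon WT, LPMC WT, colon KO and LPMC KO. The labels give no age, strain or sex, and do not say whether each library is a different mouse. A p-value therefore reflects only how much these libraries varied, and some of that variation may be technical.

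B cells recognise antigen through a surface immunoglobulin that signals through the Cd79a and Cd79b chains. In the mouse colon most naive B cells sit in organised lymphoid follicles, the colonic patches and isolated lymphoid follicles, which are scattered along the wall, whereas plasma cells, which have switched off most B cell surface genes, lie throughout the lamina propria. Follicular stroma makes Cxcl13, which draws in B cells carrying its receptor Cxcr5, and T cell zones make Ccl19 and Ccl21a, the ligands of Ccr7.

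Levels below are CPM, counts per 1e6 reads of a library after TMM scaling, unless stated otherwise. Libraries held 45.4 to 140.7 M reads in total (M, 1e6). The deleted gene, annotated as 2610528A11Rik, had 15639 to 80362 counts in the WT libraries and 4 to 20 in the KO libraries, so the genotype labels held in all 12. The LPMC label was only partly borne out by markers. The 6 epithelial genes summed to 6408 to 9017 CPM in LPMC libraries against 11230 to 21650 CPM in colon, so epithelial RNA was abundant in both. Genes of T cells (128 to 411 CPM in LPMC, 11.4 to 120 CPM in colon) and of plasma cells (924 to 3543 CPM against 556 to 654 CPM) were higher in LPMC. Endothelial genes were also higher there (94.9 to 260 CPM against 23.3 to 79.98 CPM). The tissues overlapped for macrophage genes (135.8 to 470.5 CPM against 55.2 to 404 CPM) and dendritic cell genes (29.03 to 92.3 CPM against 8.75 to 41.99 CPM). They also overlapped for neutrophil genes (46.6 to 458 CPM against 260 to 758 CPM) and smooth muscle genes (136 to 1182 CPM against 225 to 1952 CPM).

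The main pattern concerned 1 library. In colon WT replicate 1, 31 of the 32 genes were at their highest among the 6 colon libraries, and 24 of them were at least 10 times above the next colon library. Ly6d was the exception, being higher in colon WT replicate 2, and Ccl21a counted among the 31 on 2 reads alone. Across the 31 genes with reads in another colon library, the median ratio of colon WT replicate 1 to the highest of the other 5 was 30.6, and the largest was 54.7 for Ighd. Among all 19303 genes tested in colon, 2609 were highest in colon WT replicate 1. Of the same 19303 genes, 106 (0.549%) were at least 10 times above the next library in colon WT replicate 1, and 0 to 2 were so in each other colon library. In the same library 29 of the 32 genes were also above every LPMC library, against 6821 of the 19303 genes tested in colon. The 3 genes below the highest LPMC library were Pou2af1, Ccr7 and Bcl6. In a bulk sample more cells of a type and more RNA per cell cannot be told apart.

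**Figure D1:**
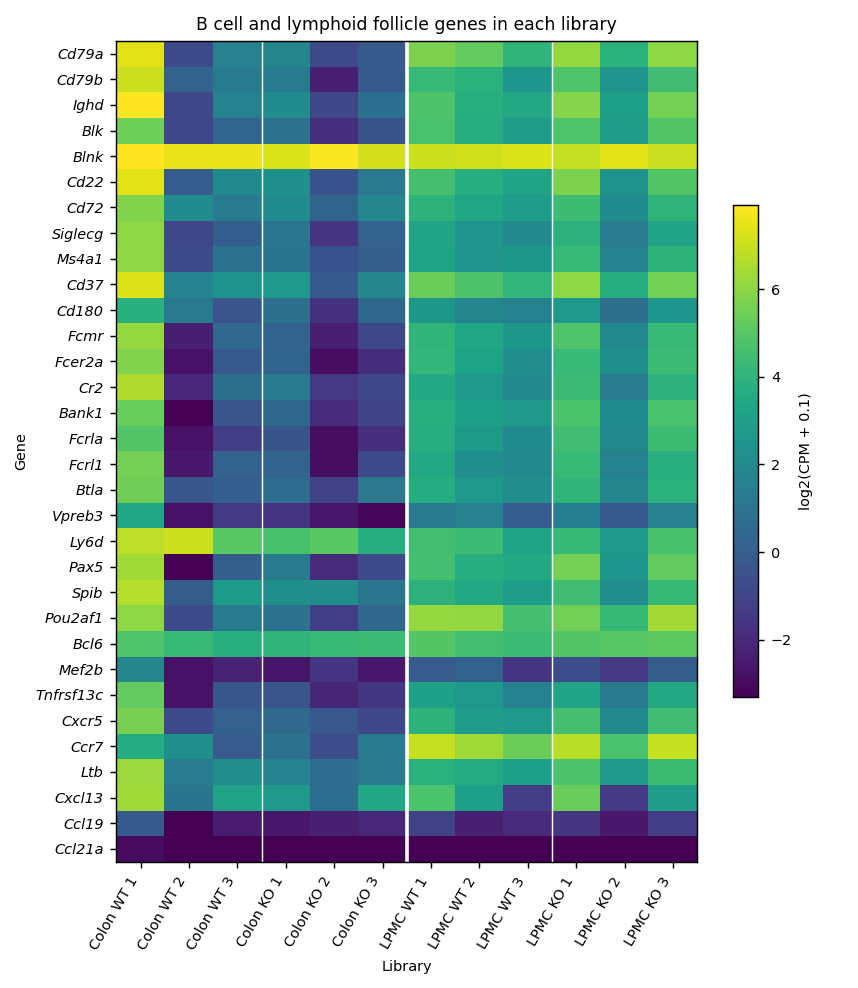
Level of each of the 32 genes (rows) in each of the 12 libraries (columns), as log2(CPM + 0.1), with white lines between groups and a thicker one between colon and LPMC. The column of colon WT replicate 1 is bright for nearly every gene, whereas the other 5 colon columns are dark for most genes. Blnk, Ly6d and Bcl6 are the brightest rows in those 5, and Cxcl13 and Spib are intermediate in some of them.

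Promoter sequence is shown for 4 of the genes because the list largely moved as a block in that library, and because Blnk, which did not, shares a motif with Vpreb3, which did. RefSeq promoter windows on GRCm38.p6, from 250 bases before to 50 after a gene's start, were found for 25 of the 32 genes (30 windows). The windows below are printed 5′ to 3′ on the gene's strand, and capitals mark a matched motif. They are Vpreb3 (chr10:75948050-75948349, plus strand), Blnk (chr19:40994172-40994471, minus strand), Cd79a (chr7:24897247-24897546, plus strand) and Cxcl13 (chr5:95956689-95956988, plus strand).
Vpreb3: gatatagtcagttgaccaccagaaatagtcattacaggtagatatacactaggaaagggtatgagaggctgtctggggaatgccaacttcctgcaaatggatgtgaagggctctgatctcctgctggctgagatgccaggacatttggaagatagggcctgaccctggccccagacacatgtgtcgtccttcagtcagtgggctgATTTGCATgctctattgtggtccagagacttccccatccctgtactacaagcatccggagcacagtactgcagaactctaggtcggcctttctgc
Blnk: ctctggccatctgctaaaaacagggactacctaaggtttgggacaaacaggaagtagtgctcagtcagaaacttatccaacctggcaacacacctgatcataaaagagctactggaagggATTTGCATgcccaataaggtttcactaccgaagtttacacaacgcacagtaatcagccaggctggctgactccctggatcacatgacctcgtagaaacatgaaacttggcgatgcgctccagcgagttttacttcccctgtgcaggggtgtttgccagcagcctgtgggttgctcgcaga
Cd79a: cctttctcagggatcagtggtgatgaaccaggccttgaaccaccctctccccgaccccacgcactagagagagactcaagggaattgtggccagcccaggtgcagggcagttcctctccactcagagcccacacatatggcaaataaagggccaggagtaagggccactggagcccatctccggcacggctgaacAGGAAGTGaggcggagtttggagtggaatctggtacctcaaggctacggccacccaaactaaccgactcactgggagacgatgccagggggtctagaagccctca
Cxcl13: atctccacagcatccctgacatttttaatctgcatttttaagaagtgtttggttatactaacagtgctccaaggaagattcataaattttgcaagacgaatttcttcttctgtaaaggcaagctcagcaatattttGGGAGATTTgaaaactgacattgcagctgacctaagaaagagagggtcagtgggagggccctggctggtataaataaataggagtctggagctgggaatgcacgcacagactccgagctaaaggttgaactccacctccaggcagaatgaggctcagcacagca

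Motifs were searched on both strands. The octamer ATGCAAAT, bound by the factors that Pou2af1 assists, was found in the windows of 3 genes, namely Vpreb3 and Blnk, where it reads ATTTGCAT on the gene's strand, and Mef2b, and in 1.74% of all 32851 windows in the table. The ETS-type motif AGGAAGTG, of the family to which Spib belongs, was found in Cd79a, in 1 of the 30 windows and in 4.07% of all windows. The motif GGGAGATTT, a variant of the NF-kB site, was found in Cxcl13, in 1 of the 30 windows and in 0.317% of all windows. A motif of the EBF type, CCCNNGGGA, was found in Cd22, in 1 of the 30 windows and in 6.56% of all windows. In Cd22 its matches on the 2 strands overlapped. The motifs were chosen after some of the windows had been read, so the shares are descriptions only.

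The B cell receptor genes showed the pattern at its clearest. Cd79a (ENSMUSG00000003379, chr7:24897381-24902197, plus strand, GRCm38), a signalling chain of the receptor, stood at 171, 0.465 and 2.85 CPM in colon WT replicates 1 to 3 and at 3.34, 0.473 and 0.823 CPM in colon KO. In LPMC it stood at 52.3, 37.3 and 16.5 CPM in WT and 70.8, 14.4 and 63.8 CPM in KO. Colon WT replicate 1 was thus the highest of all 12 libraries, the other 5 colon libraries were below every LPMC library, and the genotypes overlapped in both tissues. The group means were 58.0 ± 97.6 CPM (SD, n = 3) in colon WT, 1.54 ± 1.56 in colon KO, 35.4 ± 17.99 in LPMC WT and 49.7 ± 30.8 in LPMC KO, so that the SD of colon WT exceeded its mean.

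Cd79b, the partner chain, had 129, 1.07 and 2.41 CPM in colon WT, 2.43, 0.0979 and 0.763 CPM in colon KO, 18.8, 14.5 and 5.93 CPM in LPMC WT and 28.0, 5.73 and 22.5 CPM in LPMC KO. Ighd (chr12:113406604-113416324, minus strand), the constant region of IgD that marks naive B cells, had 240.2, 0.418 and 2.98 CPM in colon WT and 4.39, 0.424 and 1.62 CPM in colon KO. Its LPMC levels were 27.6, 13.4 and 10.8 CPM in WT and 59.4, 7.96 and 47.2 CPM in KO. For both genes colon WT replicate 1 lay several-fold above every LPMC library. Blk, a Src-family kinase of the receptor pathway, reached 43.1 CPM in colon WT replicate 1 and at most 1.80 CPM in the other colon libraries.

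Blnk, the adaptor that links the receptor to its downstream enzymes, did not follow the others. It was at 243, 187 and 193 CPM in colon WT, 158, 232 and 145 CPM in colon KO, 131, 138 and 155 CPM in LPMC WT and 119, 171 and 128 CPM in LPMC KO. All 12 libraries were thus within a narrow range, with colon WT replicate 1 only 1.05 times above the next colon library. Vpreb3, a protein related to the surrogate light chain whose promoter window holds the same octamer, had 9.96, 0.0465 and 0.272 CPM in colon WT and 0.237, 0.0653 and 0.0134 CPM in colon KO, so colon WT replicate 1 was 36.6 times above the next colon library.

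Surface molecules of mature B cells followed Cd79a. Ms4a1, which encodes CD20, had 66.7, 0.511 and 1.71 CPM in colon WT, 1.98, 0.620 and 0.944 CPM in colon KO, 9.21, 5.75 and 6.09 CPM in LPMC WT and 19.0, 2.98 and 15.4 CPM in LPMC KO. Cr2, the complement receptor CD21 of B cells and follicular dendritic cells, had 95.0, 0.139 and 1.69 CPM in colon WT, 2.38, 0.261 and 0.428 CPM in colon KO, 11.8, 6.33 and 4.12 CPM in LPMC WT and 21.1, 2.53 and 14.9 CPM in LPMC KO. Fcer2a, the low-affinity IgE receptor CD23, had 55.2, 0.0465 and 0.774 CPM in colon WT, 1.13, 0.0326 and 0.174 CPM in colon KO, 17.3, 9.21 and 4.47 CPM in LPMC WT and 19.3, 4.69 and 21.1 CPM in LPMC KO. In each of these 3 genes colon WT replicate 1 was the highest library of the study and 1 of the other colon WT libraries was among the lowest.

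Of the inhibitory receptors, Cd22 reached 171 CPM in colon WT replicate 1 against at most 4.85 CPM in the other colon libraries, and Siglecg reached 64.1 CPM against at most 2.02 CPM. Btla, an inhibitory receptor shared with T cells, had 44.2 CPM against at most 2.07 CPM. Cd72, another inhibitory receptor, had 54.9 CPM against at most 4.19 CPM, but 1423 bases of its exons overlap those of Tesk1 on the opposite strand, and the strand setting of the counting is not given. The tetraspanin Cd37 (162 against at most 6.22 CPM), the IgM receptor Fcmr (70.1 against 1.35 CPM), the scaffold Bank1 (39.1 against 1.28 CPM) and the Fc receptor-like genes Fcrl1 (47.1 against 1.09 CPM) and Fcrla (30.0 against 0.668 CPM) behaved likewise. Cd180, a Toll-like receptor homologue, had a smaller ratio, with 14.1 CPM against at most 2.21 CPM.

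Ly6d (chr15:74762056-74763620, minus strand), a surface protein of early committed B cells that squamous epithelium also makes, differed from the rest. Its levels were 111, 136 and 33.4 CPM in colon WT, 25.1, 32.5 and 12.8 CPM in colon KO, 22.9, 20.9 and 8.86 CPM in LPMC WT and 18.6, 6.597 and 25.3 CPM in LPMC KO. Colon WT replicates 1 and 2 were both high, and every colon WT library was above every colon KO library, the closest pair being 33.4 and 32.5 CPM.

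Transcription factors of the B lineage were split. Pax5, which maintains B cell identity, had 82.3, 0 and 0.974 CPM in colon WT and 2.45, 0.163 and 0.495 CPM in colon KO. The 0 counts in colon WT replicate 2 allow up to 0.0697 CPM at 3 counts, a limit that covers counting error only. The limit would be higher if both mates of a pair were counted. In LPMC Pax5 had 23.3, 12.6 and 11.8 CPM in WT and 48.2, 5.98 and 37.4 CPM in KO, below colon WT replicate 1 throughout. Spib, an ETS factor of B cells, plasmacytoid dendritic cells and M cells, had 101.04, 0.883 and 6.96 CPM in colon WT, 4.68, 4.45 and 2.01 CPM in colon KO, 15.03, 11.1 and 7.63 CPM in LPMC WT and 22.3, 4.52 and 18.7 CPM in LPMC KO. Outside colon WT replicate 1 its highest colon levels overlapped the lowest LPMC ones.

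Pou2af1, a coactivator that plasma cells keep, was arranged differently. It had 64.9, 0.511 and 2.32 CPM in colon WT, 1.71, 0.326 and 1.23 CPM in colon KO, 71.1, 67.8 and 24.4 CPM in LPMC WT and 46.3, 18.3 and 84.1 CPM in LPMC KO. Colon WT replicate 1 was high among colon libraries but lay within the range of LPMC. Bcl6, the repressor that sets up germinal centre B cells and that other cells also express, had 27.9, 19.8 and 13.3 CPM in colon WT, 16.4, 19.8 and 20.5 CPM in colon KO, 30.9, 22.7 and 20.5 CPM in LPMC WT and 30.4, 32.3 and 34.3 CPM in LPMC KO. It varied little, and colon WT replicate 1 was 1.36 times above the next colon library. Mef2b, a germinal centre factor, was low everywhere, with 301 counts (3.63 CPM) in colon WT replicate 1, 2 to 14 counts in the other colon libraries and 12 to 102 counts in LPMC.

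Homing and survival receptors also parted. Cxcr5, the receptor of Cxcl13, had 48.6, 0.465 and 1.00 CPM in colon WT, 1.38, 0.718 and 0.428 CPM in colon KO, 15.3, 7.34 and 6.48 CPM in LPMC WT and 23.97, 3.84 and 22.5 CPM in LPMC KO. Tnfrsf13c, the receptor of the survival factor BAFF, had 36.8 CPM in colon WT replicate 1, at most 0.716 CPM in the other colon libraries and 2.36 to 11.1 CPM in LPMC. Ccr7 (chr11:99144196-99155077, minus strand), carried by naive lymphocytes and migrating dendritic cells, had 12.2, 4.74 and 0.831 CPM in colon WT, 1.79, 0.522 and 2.46 CPM in colon KO, 123, 80.5 and 42.1 CPM in LPMC WT and 108, 25.9 and 123 CPM in LPMC KO. For Cxcr5 and Tnfrsf13c colon WT replicate 1 exceeded all LPMC libraries, whereas for Ccr7 it was below all of them and only 2.58 times above the next colon library.

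**Figure D2:**
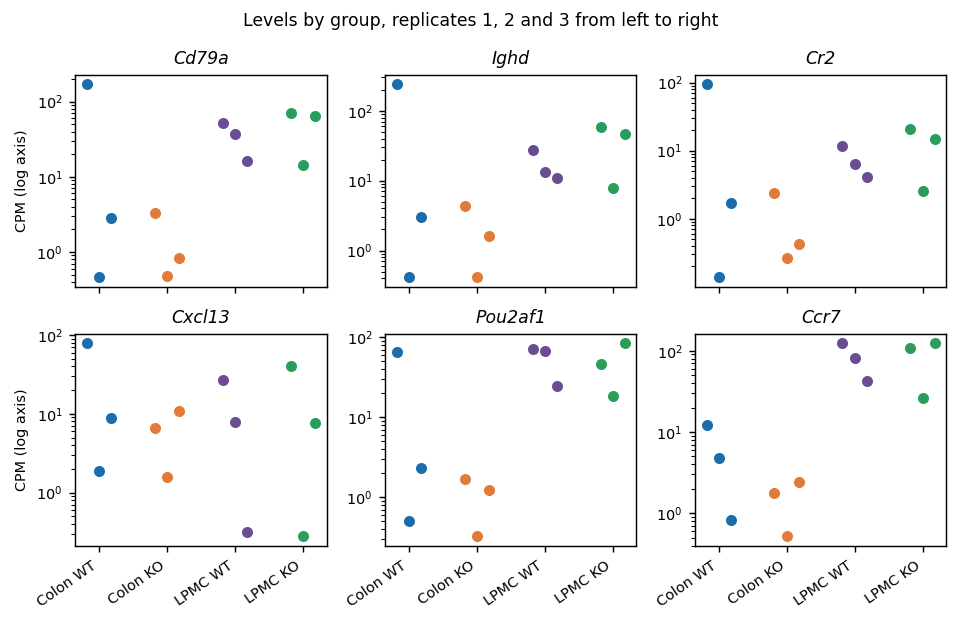
Levels (CPM, log axis) of 6 of the genes in the 4 groups, 1 point per library and replicates 1, 2 and 3 from left to right. For Cd79a, Ighd, Cr2 and Cxcl13 colon WT replicate 1 is the highest point of the panel, for Pou2af1 it lies among the LPMC points and for Ccr7 it lies below them.

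The stromal genes gave a mixed picture. Cxcl13 (chr5:95956951-95961068, plus strand), the chemokine of follicular stroma, had 78.8, 1.90 and 8.93 CPM in colon WT, 6.70, 1.58 and 10.8 CPM in colon KO, 26.7, 7.93 and 0.312 CPM in LPMC WT and 41.1, 0.279 and 7.76 CPM in LPMC KO. Colon WT replicate 1 was again the highest library, but the ratio to the next colon library was 7.32, smaller than for most B cell genes. Within LPMC the gene spanned 147-fold, from 16 counts in LPMC WT replicate 3 and 23 in LPMC KO replicate 2 to 5654 in LPMC KO replicate 1, whereas Cd79a spanned 4.93-fold over the same libraries. Ltb, the lymphotoxin subunit by which lymphocytes induce that stroma, had 75.9, 2.65 and 4.44 CPM in colon WT, 3.11, 1.52 and 2.21 CPM in colon KO, 14.6, 12.1 and 7.98 CPM in LPMC WT and 27.2, 6.63 and 21.7 CPM in LPMC KO.

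The T zone chemokines were nearly undetected. Ccl19 had 66 counts (0.797 CPM) in colon WT replicate 1, 0 to 22 counts in the other colon libraries and 6 to 38 counts in LPMC. Ccl21a had 2 counts in colon WT replicate 1, under the 3 counts set as the limit of a 0, and 0 in the other 11 libraries. It has near-identical neighbouring copies, among which reads may have been split or dropped, so its level is uncertain.

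Summed over 29 of the genes, leaving out Blnk, Bcl6 and Ly6d, which were set aside after their values were seen, the level was 2012 CPM in colon WT replicate 1 and 15.6 to 64.9 CPM in the other 5 colon libraries. The sum was 627, 404 and 226 CPM in LPMC WT and 849, 159 and 746 CPM in LPMC KO. All LPMC libraries were above the other 5 colon libraries and below colon WT replicate 1. Over the 31 genes detected in LPMC, replicate 2 of LPMC KO was the lowest library for 27 and replicate 1 of LPMC KO the highest for 20, so for most of the genes both ends of the LPMC range were KO libraries.

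Per kilobase of exon, which allows genes to be set side by side, the order of mean levels differed between groups. In LPMC WT Ccr7 led with 41.4 ± 20.5 CPM per kb (SD, n = 3), followed by Cd79a (24.3 ± 12.3), Ly6d (23.6 ± 10.2), Blnk (23.6 ± 2.07) and Pou2af1 (21.4 ± 10.2), and each exceeded the next by no more than 1 SD. In LPMC KO Ccr7 (43.4 ± 26.5) and Cd79a (34.1 ± 21.1) led in the same way. In colon KO Ly6d (31.5 ± 13.3) and Blnk (29.7 ± 7.82) stood above Cxcl13 (5.52 ± 3.998), with Cd79a at 1.06 ± 1.07 CPM per kb. In colon WT Ly6d led with 126 ± 71.9, and the SD of the B cell receptor genes exceeded their means there.

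Other genes moved with the list in colon WT replicate 1. Of 16 further B cell genes, 15 were highest there among colon libraries and 9 at least 10 times above the next, among them Ighm, the IgM heavy chain, with 393 CPM against at most 11.8 CPM. All 14 T cell genes were also highest there, 0 of them 10-fold, and their sum was 120 CPM, compared with 11.4 to 39.5 CPM across the other 5. Cd3e, a chain of the T cell receptor complex, had 2.27 CPM there and 0.261 to 1.13 CPM in the others. Of 10 germinal centre genes 5 were highest there, and 0 of them 10-fold. Over all 19303 genes tested in colon, 2609 were highest there.

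Of 10 genes of lymphoid tissue organisers and homing, 6 were highest in colon WT replicate 1. Lta, the lymphotoxin alpha chain, had 8.55 CPM there against at most 0.459 CPM. Glycam1, an L-selectin ligand of high endothelial venules, had 2.20 CPM there, 0.0134 CPM in colon KO replicate 3 and 0 in the other colon libraries. Ltbr, Chst4, Cxcl12 and Il7 were not highest there, at 0.442 to 0.809 times the highest other colon library. Of 7 genes of M cells and follicle epithelium 2 were highest there, including Gp2, the M cell receptor for bacteria, with 7.85 CPM against at most 1.75 CPM. Ccl9, Ccl20, Tnfaip2, Scg5 and Tnfrsf11a were not, at 0.558 to 0.858 times the highest other colon library.

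Plasma cell genes were mixed. Of 8, 6 were highest in colon WT replicate 1 and 2 at least 10 times above the next colon library, namely Irf4, a factor of activated B cells and plasma cells, at 14.3 CPM against at most 0.951 CPM, and Mzb1, a chaperone of immunoglobulin assembly, at 16.2 CPM against at most 1.33 CPM. Jchain, which joins secreted IgA and IgM, was at 67.6 CPM against at most 38.2 CPM. The sum of the 8 was 625 CPM there and 556 to 654 CPM in the other colon libraries, but Xbp1 (291 CPM) and Sdc1 (201 CPM), which were abundant in every colon library, made up most of it. Smooth muscle genes were at their lowest colon sum there, with 225 CPM against 354 to 1952 CPM. Epithelial genes summed to 17350 CPM, within the 11230 to 21650 CPM of the others. The part of the higher T cell and lower smooth muscle levels in the B cell result was not tested.

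Among genes outside the lists with at least 10 CPM in colon WT replicate 1, the 15 with the largest ratios to the next colon library included the class II genes H2-Eb2 (35.6), H2-DMb2 (30.7) and H2-Oa (25.9), the lymphocyte adaptor Lax1 (21.7), the Notch regulator Dtx1 (20.1), the chemokine receptor Ccr6 (20.1), the lymphoid transcription factor Ikzf3 (19.5) and the lambda light chain gene Iglc3 (16.5). The others were Chst3 (39.1), Srpk3 (35.3), Cacna1i (34.1), Ffar1 (29.9), Haao (21.7), Acap1 (19.1) and Tspan32 (18.4). They were chosen for this ratio, which is given with no test.

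Ratios of read counts within a library, for pairs chosen after the values were seen, set colon WT replicate 1 apart from LPMC for some genes and not for others. Counts of Cd79b per Cd79a were 0.758 in colon WT replicate 1 and 0.352 to 0.399 in the 6 LPMC libraries. In the other colon libraries they were 0.844 in colon WT replicate 3, 0.729 in colon KO replicate 1 and 0.927 in colon KO replicate 3, while the values of 2.30 and 0.207 in colon WT replicate 2 and colon KO replicate 2 rest on 20 and 29 Cd79a counts. For Cr2 per Cd79a the ratio was 0.556 in colon WT replicate 1, 0.300 to 0.713 in the other colon libraries and 0.170 to 0.298 in LPMC. Both ratios were thus higher in colon WT replicate 1 than in any LPMC library, as were those of Ighd (1.41 against at most 0.839), Cd22 (1.00 against at most 0.735) and, by little, Ms4a1 (0.391 against at most 0.370) to Cd79a. In the other colon libraries these ratios were 0.897 to 1.97 for Ighd, 1.31 to 2.6 for Cd22 and 0.594 to 1.31 for Ms4a1. For Cd22 and Ms4a1 colon WT replicate 1 was thus the lowest colon library, so a high ratio did not set it apart within colon.

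Other ratios to Cd79a lay within the LPMC range in colon WT replicate 1. Fcer2a stood at 0.323 (LPMC 0.247 to 0.331), Pax5 at 0.482 (0.338 to 0.717), Ltb at 0.444 (0.279 to 0.485) and Cxcl13 at 0.461 (0.019 to 0.581). Pou2af1 was below it, at 0.380 against 0.653 to 1.82. In the other colon libraries Ltb stood at 0.932 to 5.7, Cxcl13 at 2.01 to 13.1 and Pou2af1 at 0.513 to 1.5, all above colon WT replicate 1. Fcer2a (0.069 to 0.339) and Pax5 (0 to 0.735) lay on both sides of it there. All these colon ranges include colon WT replicate 2 and colon KO replicate 2, with 20 and 29 Cd79a counts, so some extremes are uncertain.

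Counts of Ighd per Ighm were 0.612 in colon WT replicate 1, 0.121 to 0.371 in the other colon libraries and 0.189 to 0.265 in LPMC. Ccr7 per Cd79a was 0.0716 in colon WT replicate 1, 0.291 to 10.2 in the other colon libraries and 1.53 to 2.55 in LPMC. The value of 10.2, in colon WT replicate 2, rests on 20 Cd79a counts. Jchain per Cd79a was 0.396 in colon WT replicate 1 and at least 3.52 in each other library. Colon WT replicate 1 therefore had the highest share of Ighd and the lowest ratios of Ccr7 and Jchain to Cd79a among the 12 libraries. Part of the Ccr7 and Jchain reads come from cells other than B cells, so these ratios do not describe B cells alone.

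**Figure D3:**
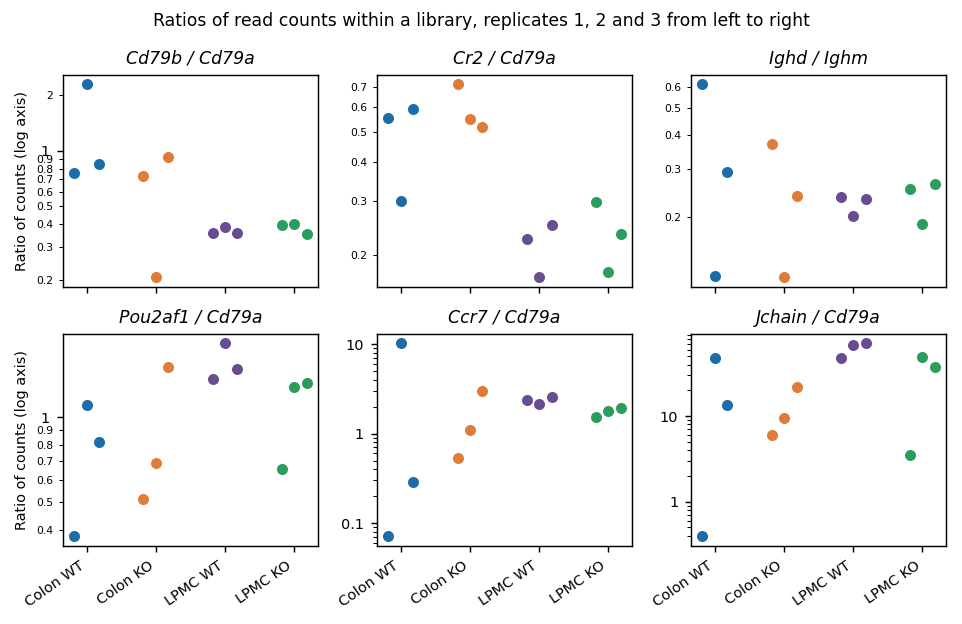
Ratios of read counts between pairs of genes within each library (log axes), 1 point per library and replicates 1, 2 and 3 from left to right in each of the 4 groups. For Cd79b per Cd79a the 6 LPMC points lie between 0.352 and 0.399, below colon WT replicate 1 at 0.758, and for Jchain per Cd79a colon WT replicate 1 is the lowest point at 0.396.

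The comparison of KO with WT in colon asks whether loss of the ligand changed these genes in the inflamed colon. By edgeR's quasi-likelihood test with Benjamini-Hochberg adjustment, 0 of the 29 genes tested passed an adjusted p of 0.05, against 1 of 19303 genes tested (0.00518%), and Ccl19, Ccl21a and Mef2b were too low to be tested. All 29 estimates were negative, against 9562 of the 19303 genes tested. Their median log2 fold change was -4.34, against 0.01 over all genes tested. An unadjusted p under 0.05 was found for 15 of the 29, against 1504 of the 19303. Cd79a had a log2 fold change of -5.26 (SE 2.05), Ighd of -5.26 (SE 2.16) and Cxcl13 of -2.26 (SE 1.27), with adjusted p of 0.632, 0.632 and 0.667 by edgeR. These estimates rest on colon WT replicate 1.

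Without that library 14 of the 29 estimates were positive and 15 negative, the median was -0.08 against 0.04 over all genes tested, and Cd79a stood at -0.11 (SE 1.03), Ighd at 0.33 (SE 1.10), Cr2 at 0.14 (SE 1.23) and Pax5 at 1.05 (SE 1.58). Again 0 passed by edgeR, and 1 had an unadjusted p under 0.05. DESeq2 on all 6 libraries also called 0 and gave no adjusted p for 22 of the 29.

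Ly6d was the only one of the 29 whose colon groups did not overlap, against 14.3% of all genes tested, a share that the list did not exceed. Its log2 fold change was -2.01 (SE 0.56) with an adjusted p of 0.632 by edgeR, lower in all 3 KO libraries than in any WT library. Without colon WT replicate 1 it was -1.86 (SE 0.63), adjusted p = 0.498 by edgeR. Its estimate thus hardly depended on that library, unlike those of most of the other genes. Of the further lists fitted in colon, 0 of 14 T cell genes passed by edgeR, with 14 negative estimates and a median of -1.20, and 0 of 16 further B cell genes, with 15 negative and a median of -2.40. Without colon WT replicate 1 these medians were -0.30 and -0.04.

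The same comparison in LPMC gave smaller estimates of mostly the other sign. Of 31 genes tested, 0 passed by edgeR, against 2 of 19426 (0.0103%). An unadjusted p under 0.05 was found for 0 of the 31, against 513 of the 19426. DESeq2 also called 0. Estimates were positive for 27 and negative for 4, against 9559 positive of the 19426. The median log2 fold change was 0.49 against -0.00412 over all genes tested, with a range of -0.32 to 1.15. Ighd had the largest at 1.15 (SE 0.74) and Cd79a had 0.49 (SE 0.67), each with an adjusted p of 0.998 by edgeR. LPMC groups overlapped for all 31 genes, against 7.41% of all genes tested without overlap. T cell genes stood at a median of 0.61 with 12 of 14 positive, macrophage genes at 0.91 with 6 of 6, and plasma cell genes at -0.48 with 7 of 8 negative, 0 of these passing by edgeR.

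The difference of the KO effect between LPMC and colon was tested as an interaction over all 12 libraries. By edgeR 0 of 31 genes passed, as did 0 of 20989 genes tested (0%). All 31 estimates were positive, against 10240 of the 20989, with a median of 4.78 on the log2 scale. An unadjusted p under 0.05 was found for 20 of the 31, against 985 of the 20989. For Ighd the difference was 6.38 (SE 2.43), adjusted p = 0.902 by edgeR. Without colon WT replicate 1 the median was 0.52, with 26 positive and 0 under an unadjusted p of 0.05, and Ighd stood at 0.82 (SE 1.42).

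LPMC was compared with colon to ask which of the genes the isolation enriched. By edgeR over all 12 libraries 5 of 31 genes passed, against 50.3% of all genes tested, 3 of them higher in LPMC (25.4% of all genes) and 2 lower (24.9%). The higher ones were Ccr7 with a difference of 4.76 on the log2 scale (SE 0.71, adjusted p = 0.000373), Pou2af1 with 3.38 (SE 0.99, adjusted p = 0.0162) and Bcl6 with 0.53 (SE 0.18, adjusted p = 0.0279), all by edgeR. The lower ones were Ly6d with -1.45 (SE 0.44, adjusted p = 0.0181) and Blnk with -0.45 (SE 0.14, adjusted p = 0.0216), also by edgeR. Ccr7 was the only gene of the list whose tissues did not overlap, against 27.7% of all genes tested. Cd79a (2.14, SE 1.10, adjusted p = 0.129 by edgeR) and Cxcl13 (0.00, SE 1.17, adjusted p = 0.998) did not pass. The calls of 2 genes were lost when other libraries were left out. For Bcl6 the adjusted p by edgeR was 0.0522 without colon WT replicate 2, 0.0732 without colon KO replicate 1, 0.0731 without LPMC WT replicate 1 and 0.0582 without LPMC KO replicate 3. For Blnk it was 0.0512 without LPMC WT replicate 1, 0.0554 without LPMC KO replicate 1 and 0.0530 without LPMC KO replicate 3, so that 3 of 31 genes passed without either LPMC WT replicate 1 or LPMC KO replicate 3.

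Without colon WT replicate 1, 29 of the 31 genes passed by edgeR, 27 higher in LPMC against 25.6% of all genes tested and 2 lower against 24.2%. That library was singled out because these same genes were extreme in it. The p-values of this fit therefore only describe the remaining libraries and are not independent evidence. The median log2 fold change was then 3.32 against 0.01 over all genes, compared with 1.06 when that library was kept. Cd79a rose by 4.70 (SE 0.81, adjusted p = 0.00127), Ighd by 3.74 (SE 0.83, adjusted p = 0.00491), Fcrla by 5.52 (SE 0.90, adjusted p = 0.00091) and Spib by 1.77 (SE 0.58, adjusted p = 0.028) on the log2 scale by edgeR. Cxcl13 (1.24, SE 1.19, adjusted p = 0.413) and Ccl19 (1.55, SE 0.68, adjusted p = 0.0838) did not pass.

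Of the other lists, those of T cells, plasma cells and epithelium depended less on that library in the tissue comparison. Over all genes tested with all libraries, 25.4% were higher in LPMC and 24.9% lower by edgeR. T cell genes were higher in LPMC for 13 of 14 by edgeR with all libraries (median 2.85) and 14 of 14 without colon WT replicate 1 (median 3.12). Cd28, a costimulatory receptor, was higher by 4.97 on the log2 scale (SE 0.40, adjusted p = 6.65e-06 by edgeR). Plasma cell genes were higher for 7 of 8 in both fits, with Jchain at 5.95 (SE 0.67, adjusted p = 6.92e-05 by edgeR). Of the 16 further B cell genes 6 were higher and 1 lower, and 11 and 1 without colon WT replicate 1, so this list did depend on it. Epithelial genes were lower for 5 of 6 in both fits, Krt20, a keratin of surface epithelium, at -3.07 (SE 0.28, adjusted p = 1.37e-05 by edgeR).

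**Figure D4:**
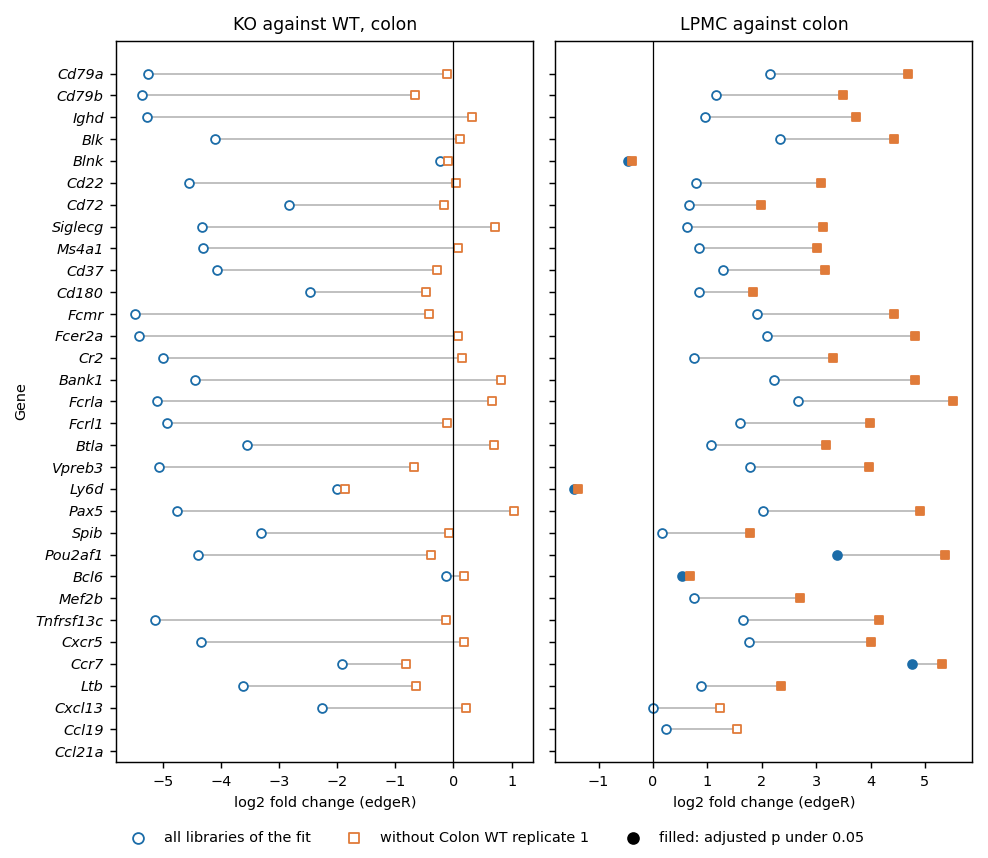
Log2 fold change by edgeR for each gene that was tested, for KO against WT in colon (left) and LPMC against colon (right), with circles for all libraries of the fit, squares without colon WT replicate 1, and filled symbols for an adjusted p under 0.05. On the left 0 symbols are filled and the squares lie on both sides of 0, with Ly6d at -1.86. On the right 5 circles and 29 squares are filled.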

How the data were processed

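RNA was sequenced from 12 mouse libraries in 4 groups of 3, from mRNA made into stranded TruSeq libraries and read on an Illumina instrument, per the labels' protocols. The authors deposited whole-number read counts per Ensembl gene with no normalization. Reads were handled with STAR on GRCm38 (mm10), per the submitters' processing notes. Versions, the counting tool, its strand setting and its annotation were not given in those sources. Of the 54109 identifiers 54042 matched GENCODE M21. Even counts were in excess, at 66.6 to 76.6% of values from 1 to 20, as when both mates of a pair are counted, which makes the counting error larger than it looks. Within every group, replicates differed by more than sampling noise, with a chi-square of 75.5 to 602 per gene, and all 12 libraries were kept.

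Counts were tested with edgeR 4.0.16 in R 4.3.3 (filterByExpr with a minimum count of 10, TMM, robust quasi-likelihood fit), within each tissue for KO against WT and over all 12 libraries for the rest. P-values were adjusted by Benjamini-Hochberg over all genes tested and called under 0.05. The step was tested on simulated counts. Levels are TMM-scaled CPM, and CPM per kb of merged exons. Alternatives were DESeq2 1.42.0, RLE size factors, no filter on low counts, all 12 libraries in each fit, a replicate block and leaving out each library. A block across tissues was added after seeing the data. The genes and all 12 other lists were chosen with earlier results of these data known. The motifs, the count ratios and the 14 genes followed under every alternative were chosen after values or sequences were seen. Values in every library were given for a set of genes named by rule, to which Blnk, Ly6d and Vpreb3 were added after their values were seen. Up to 5 genes of each other list were named, by lowest p or after their values were seen, and some items are not reported here.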

Additional observations from a re-analysis of the deposited data

How the results depend on the processing

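Genes called for KO against WT in colon numbered 32 by DESeq2, 2 with all 12 libraries, 0 with the replicate number as a block and 0 to 1 with a library left out, against 1. In LPMC they numbered 34 by DESeq2, 4 with no filter on low counts, 0 with the block and 1 to 2 with a library left out, against 2. For the interaction DESeq2 called 3, against 0. Within tissues the replicate numbers did not pair samples, with correlations of same-numbered libraries of -0.28 to 0.27. Across tissues all 6 same-numbered pairs were positive (0.064 to 0.303), but not all over 0.1, and whether they share an animal is not known. For LPMC against colon the genes of the list called numbered 19 with the block within tissues, 18 with the block across tissues and 3 to 29 with a library left out, against 5. Pou2af1 was not called without the filter (adjusted p = 0.054 by edgeR), nor Bcl6 with the block within tissues (adjusted p = 0.0747 by edgeR).

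Leaving out a library turned the sign of some log2 fold changes, none of them called with all libraries. In colon this happened only without colon WT replicate 1, with ranges of -6.28 to 0.33 (Ighd), -6.52 to 0.14 (Cr2), -6.34 to 1.05 (Pax5), -4.91 to 0.18 (Cxcr5), -0.33 to 0.19 (Bcl6) and -2.85 to 0.22 (Cxcl13). In LPMC the ranges were -0.76 to 0.27 (Pou2af1), -0.29 to 0.51 (Ccr7), -1.51 to 1.97 (Cxcl13), -0.19 to 0.0835 (Blnk) and -0.49 to 0.33 (Ly6d), and Ccr7 was at -0.11 with the block. For LPMC against colon they were -0.11 to 1.77 (Spib) and -1.01 to 1.24 (Cxcl13). Cxcl13 was also at -0.019 with RLE size factors, -0.0187 by DESeq2, -0.0563 with the block within tissues and -0.68 with the block across tissues. For the interaction Pax5 ranged from -0.0853 to 7.27. The cause was not tested. With 3 libraries a group, differences of the size seen in LPMC could not be resolved from the spread between libraries.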

Other observations

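Gp2, which M cells express, was at 22.2 CPM in LPMC WT replicate 1 and at most 0.0807 CPM in the other 5 LPMC libraries. In colon it was at 7.85 CPM in WT replicate 1, 1.75 CPM in WT replicate 3 and at most 0.0861 CPM in the others. Jchain counts per Cd79a count were 3.52 in LPMC KO replicate 1 and 37.4 to 71.1 in the other LPMC libraries. In that library Jchain was at 249 CPM, against 707 to 2552 CPM in the other 5, while Cd79a was at 70.8 CPM, the highest of LPMC. Pdcd1, an inhibitory receptor of follicular helper and other activated T cells, was higher in LPMC than in colon by 4.54 on the log2 scale (SE 0.57, adjusted p = 0.000106 by edgeR), with 6.15 to 20.1 CPM in the 6 LPMC libraries and 0.0929 to 1.13 CPM in the 6 colon libraries. Cxcl12, a chemokine of stroma, was at 41.7 to 163 CPM in LPMC and 6.53 to 32.8 CPM in colon (log2 fold change 2.70, SE 0.46, adjusted p = 0.000825 by edgeR).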
